A study of Mus musculus with 20 samples.

Results

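Natural killer (NK) cells and some T cells carry receptors that weigh activating against inhibitory signals from the cells they meet. Transcripts of 10 such genes were followed in mouse CD4+ T cells with and without the histone methyltransferase DOT1L: the receptors Klrg1, Klrk1, Klrd1, Klrc1, Klrc2, Klrb1c, Ncr1 and Cd226, the signalling adaptor Tyrobp and the granule membrane gene Nkg7. The genes were taken by symbol from a table of 22048 protein-coding genes, and all 10 were among the 13072 that passed the filter on low counts. The data are RNA-seq counts of 20 libraries in 10 groups of 2. T cells came from spleen and peripheral lymph nodes of CD4Cre+ mice (WT) or of CD4Cre+ mice homozygous for a floxed allele, DOT1L FL/FL (KO). The controls thus also carried the Cd4-driven Cre recombinase. Naive libraries are the starting population. Th1 cultures received plate-bound anti-CD3 and anti-CD28 at 1 µg/ml each, with IL-2 and IL-12 at 10 ng/ml each and anti-IL-4 at 10 µg/ml. For Th2, the plates held the same antibodies to CD3 and CD28, and the medium had IL-2 and IL-4 at 10 ng/ml each and anti-IFN-γ at 10 µg/ml. Viable CD4+ cells were sorted after 4 days. WT cultures of each kind were also made with a compound at 1 µM: SGC0946, which inhibits the DOT1L enzyme, or SGC0649, the inactive control for it. Ages and strains are not analysed here, and Cd4-driven Cre also acts in precursors of CD8+ T cells.

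The receptors fall into families with known roles. CD94 (Klrd1) pairs with NKG2A (Klrc1) to form an inhibitory receptor for the non-classical MHC molecule Qa-1, or with NKG2C (Klrc2) to form an activating one. NKG2D (Klrk1) binds stress-induced ligands and signals through the adaptors DAP10 and, in the mouse, DAP12 (Tyrobp). KLRG1 is an inhibitory receptor for cadherins that marks terminally differentiated effector T cells and mature NK cells. NK1.1 (Klrb1c) and NKp46 (Ncr1) are markers of NK cells, DNAM-1 (Cd226) is an activating receptor for nectin-family ligands that many T cells carry, and NKG7 is found in the membrane of cytotoxic granules.

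Of the 10 genes, 5 lie in the natural killer gene complex of chromosome 6 (GRCm38, Ensembl release 84): Klrb1c at chr6:128778485-128789215, Klrd1 at chr6:129591782-129598775, Klrk1 at chr6:129610323-129623864, Klrc2 at chr6:129647496-129660689 and Klrc1 at chr6:129666015-129678973. Klrg1 lies apart from them at chr6:122270596-122282882. Ncr1 (chr7:4337724-4345164), Tyrobp (chr7:30413760-30417585) and Nkg7 (chr7:43437073-43438249) are on chromosome 7, and Cd226 is on another chromosome.

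RefSeq promoter windows (GRCm38.p6, 250 bases before to 50 after a transcript start) were matched for 6 of the 10 genes, in 8 windows: Klrk1, Klrc1, Klrc2, Klrb1c, Ncr1 and Nkg7. The stretches printed here are the bases before the start, at most 200, that lie outside the gene's Ensembl exons. They are shown because these genes share the core sequence of RUNX factors, which regulate cytotoxic genes in T and NK cells. Of several motifs searched, this core was picked by its presence in these windows, so its sharing is a description and not a test. Capitals mark that core, TGTGGT, or its reverse complement, ACCACA.
Klrk1, chr6:129623865-129624064, minus strand: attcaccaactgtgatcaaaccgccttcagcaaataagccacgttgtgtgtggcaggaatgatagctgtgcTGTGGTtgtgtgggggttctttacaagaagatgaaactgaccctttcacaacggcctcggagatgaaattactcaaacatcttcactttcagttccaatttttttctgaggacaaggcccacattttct
Klrc1, chr6:129678974-129679173, minus strand: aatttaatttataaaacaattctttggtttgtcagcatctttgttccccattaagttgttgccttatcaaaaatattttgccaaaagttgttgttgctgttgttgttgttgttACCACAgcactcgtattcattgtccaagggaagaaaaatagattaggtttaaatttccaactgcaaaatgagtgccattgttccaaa
Klrb1c, chr6:128788642-128788841, minus strand: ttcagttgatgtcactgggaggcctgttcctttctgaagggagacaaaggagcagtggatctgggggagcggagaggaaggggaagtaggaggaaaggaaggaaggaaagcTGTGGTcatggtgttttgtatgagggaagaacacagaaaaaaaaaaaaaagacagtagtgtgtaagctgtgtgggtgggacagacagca
Ncr1, chr7:4337515-4337714, plus strand: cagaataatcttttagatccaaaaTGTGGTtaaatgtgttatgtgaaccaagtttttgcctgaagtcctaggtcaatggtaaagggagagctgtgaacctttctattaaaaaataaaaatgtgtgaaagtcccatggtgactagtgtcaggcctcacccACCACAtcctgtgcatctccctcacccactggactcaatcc
Nkg7, chr7:43436938-43437072, plus strand: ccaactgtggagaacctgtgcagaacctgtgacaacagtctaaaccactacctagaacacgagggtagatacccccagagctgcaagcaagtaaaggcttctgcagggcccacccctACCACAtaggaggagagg

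The RUNX core stood in all 8 windows of the 6 genes, and in 16.8% of 32851 RefSeq promoter windows of the same length. The windows of Klrc2 overlap each other and hold the same matches, as do those of Ncr1, so the 8 are not separate promoters. For Klrc2, its matches lay in the part of the windows that overlaps an Ensembl exon and is not printed. The T-box half-site AGGTGT, or ACACCT on the other strand, was found only in the Nkg7 window among the 6 genes, 14 bases before the start, against 13.7% of all windows. The ETS core AGGAAG, or CTTCCT on the other strand, stood in the windows of Klrb1c, with 3 matches, and Nkg7, with 1, against 35.4% of all windows. The STAT palindrome TTCNNNGAA stood in the Nkg7 window (8.3% of all windows), and the GATA core AGATAA, or TTATCT on the other strand, in none of the 6 genes' windows (11.2%). No RUNX match overlapped a match of another motif, both strands were searched, and a match is a description of the letters only.

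Protein-coding counts ran from 9704500 to 13025588 per library. Levels are given as CPM, library-size scaled counts after TMM normalization, replicate 1 first, or as RPKM, which also divides by gene length, where genes are compared with each other. A gene was called higher or lower when the adjusted p of edgeR's quasi-likelihood F test was under 0.05, and fold changes are log2 values ± SE with 2 libraries a group. The labels do not say that the replicates came from separate mice, so p-values measure the spread between these libraries. Counts of Dot1l itself are summed over the whole gene, not over the deleted part alone, and so check the labels only weakly. It stood at 163 and 171 CPM in WT and 146 and 166 in KO naive libraries (-0.10 ± 0.11, adjusted p = 0.54, not called). In Th1 it had 176 and 186 CPM in WT against 131 and 146 in KO (-0.39 ± 0.11, adjusted p = 0.0084). In Th2 it had 149 and 164 against 113 and 92.5 (-0.60 ± 0.11, adjusted p = 0.00027). The extent of the deletion was not tested. Klrc1 and Klrc2 share 40.3% and 30.1% of their 50-base transcript windows with Klrc1, Klrc2 or Klrc3, and Klrb1c 18.1% with other Klrb1 genes. Reads from such stretches map to several places, so the values of these 3 genes are uncertain. In bulk RNA, fewer cells of a type and less RNA per cell cannot be told apart.

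In WT cells the genes split by culture condition. Th1 cells held the NKG2 and CD94 transcripts at high levels, Th2 cells held little of them, and the NK markers Klrb1c and Ncr1 were highest in naive libraries. Against naive cells, 5 of the 10 genes rose in WT Th1, where 34.3% of all genes tested were called higher, and 4 fell, where 33% were called lower. Against naive cells, WT Th2 had 1 gene higher (36.9% of all genes) and 8 lower (35%). Between the cultures, 5 genes were higher in Th1 than in Th2 (26% of all genes) and 1 lower (27.3%).

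Klrk1 stood at 28.9 and 19.6 CPM in WT naive, 169 and 154 in WT Th1, and 12.7 and 10.96 in WT Th2 libraries. Klrd1 stood at 33.4 and 31.1 CPM in naive, 166.7 and 166.8 in Th1, and 8.67 and 9.61 in Th2 libraries. Klrc1 stood at 8.34 and 5.84 CPM in naive, 114 and 108 in Th1, and 7.30 and 11.3 in Th2 libraries. For these 3 genes every WT Th1 library lay above every naive and Th2 library. Klrc2, the activating partner of CD94, had 7.76 and 5.30 CPM in naive, 40.3 and 39.4 in Th1 and 1.46 and 1.34 in Th2 libraries, and its log2 difference between Th1 and Th2 was 4.81 ± 0.40 (adjusted p = 1.2e-07). The same difference was 4.19 ± 0.23 for Klrd1 (adjusted p = 1.6e-09), 3.77 ± 0.20 for Klrk1 (adjusted p = 5e-10) and 3.59 ± 0.31 for Klrc1 (adjusted p = 3.3e-07). Nkg7 was also highest in Th1, with 43.8 and 37.2 CPM in naive, 605 and 645 in Th1 and 50.2 and 58.9 in Th2 libraries. Its rise from naive to Th1 was 3.95 ± 0.19 (adjusted p = 7.4e-11). Its rise to Th2, 0.43 ± 0.19 (adjusted p = 0.048, 0.00108 to 0.25 over the alternatives), lost its call without WT naive replicate 2 (0.25), without WT Th2 replicate 2 (0.216) and with a replicate block (0.058).

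Klrb1c and Ncr1 ran the other way. Klrb1c had 25.3 and 19.1 CPM in WT naive, 1.36 and 0.827 in WT Th1 and 5.02 and 5.69 in WT Th2 libraries. It was 4.33 ± 0.43 lower on the log2 scale in Th1 than in naive cells and is the one gene that was lower in Th1 than in Th2, with a difference of -2.28 ± 0.48 (adjusted p = 0.00092). Ncr1 had 8.25 and 5.21 CPM in naive libraries and between 0.679 and 0.910 in the 4 WT culture libraries without compound, which hold 8 to 11 counts each. Cd226 (chr18:89197431-89270201) had 77.5 and 64.1 CPM in naive, 9.09 and 7.44 in Th1 and 9.03 and 10.2 in Th2 libraries, with log2 differences from naive of -3.10 ± 0.21 and -2.88 ± 0.21. Tyrobp had 36.3 and 27.6 CPM in naive, 4.08 and 3.97 in Th1 and 5.93 and 6.20 in Th2 libraries, and it was called lower in both cultures. Neither Cd226 nor Tyrobp separated Th1 from Th2 at the threshold (adjusted p = 0.45 and 0.34). Over the alternatives the p of Tyrobp ran from 0.0254, with only the 4 libraries compared, to 0.513. The summed CPM of 13 myeloid and dendritic markers moved with Tyrobp, from 426 and 322 in WT naive to 33.2 and 29.8 in Th1 and 35.7 and 26.1 in Th2 libraries, where Cd209a and Clec4a2 were at 0; its part in the fall was not tested.

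Klrg1 was low in all WT libraries, with 10.1 and 5.75 CPM in naive, 4.84 and 3.31 in Th1 and 3.47 and 2.998 in Th2 libraries. Its fall from naive to Th2, -1.28 ± 0.44, was called (adjusted p = 0.016, 0.000325 to 0.164 over the alternatives) but not without WT naive replicate 1 (0.164) or WT Th2 replicate 2 (0.0783). The difference between Th1 and naive, -0.95 ± 0.41, missed the threshold (adjusted p = 0.052, 0.00303 to 0.395) and passed it with a replicate block (0.00919) and without WT naive replicate 2 (0.0208).

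Per length, the order of the genes also changed with the condition. RPKM here divides by the deposited exon length, 7183 bases for Klrk1, 5812 for Klrc2 and 2357 for Cd226. The transcripts searched for shared windows had 3197, 2811 and 4494 bases for these genes, so places in the order depend on the length used. In WT naive cells Tyrobp led with a mean of 47.9 RPKM, followed by Nkg7 at 44.3, Cd226 at 30.1 and Klrd1 at 25.2 RPKM. In WT Th1 cells Nkg7 stood at 683 RPKM, Klrd1 at 130, Klrc1 at 55.8 and Klrk1 at 22.5 RPKM, while Klrb1c was at 0.369. In WT Th2 cells Nkg7 led with 59.7 RPKM and the other 9 genes lay between 0.241 (Klrc2) and 9.10 RPKM (Tyrobp).

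**Figure D1:**
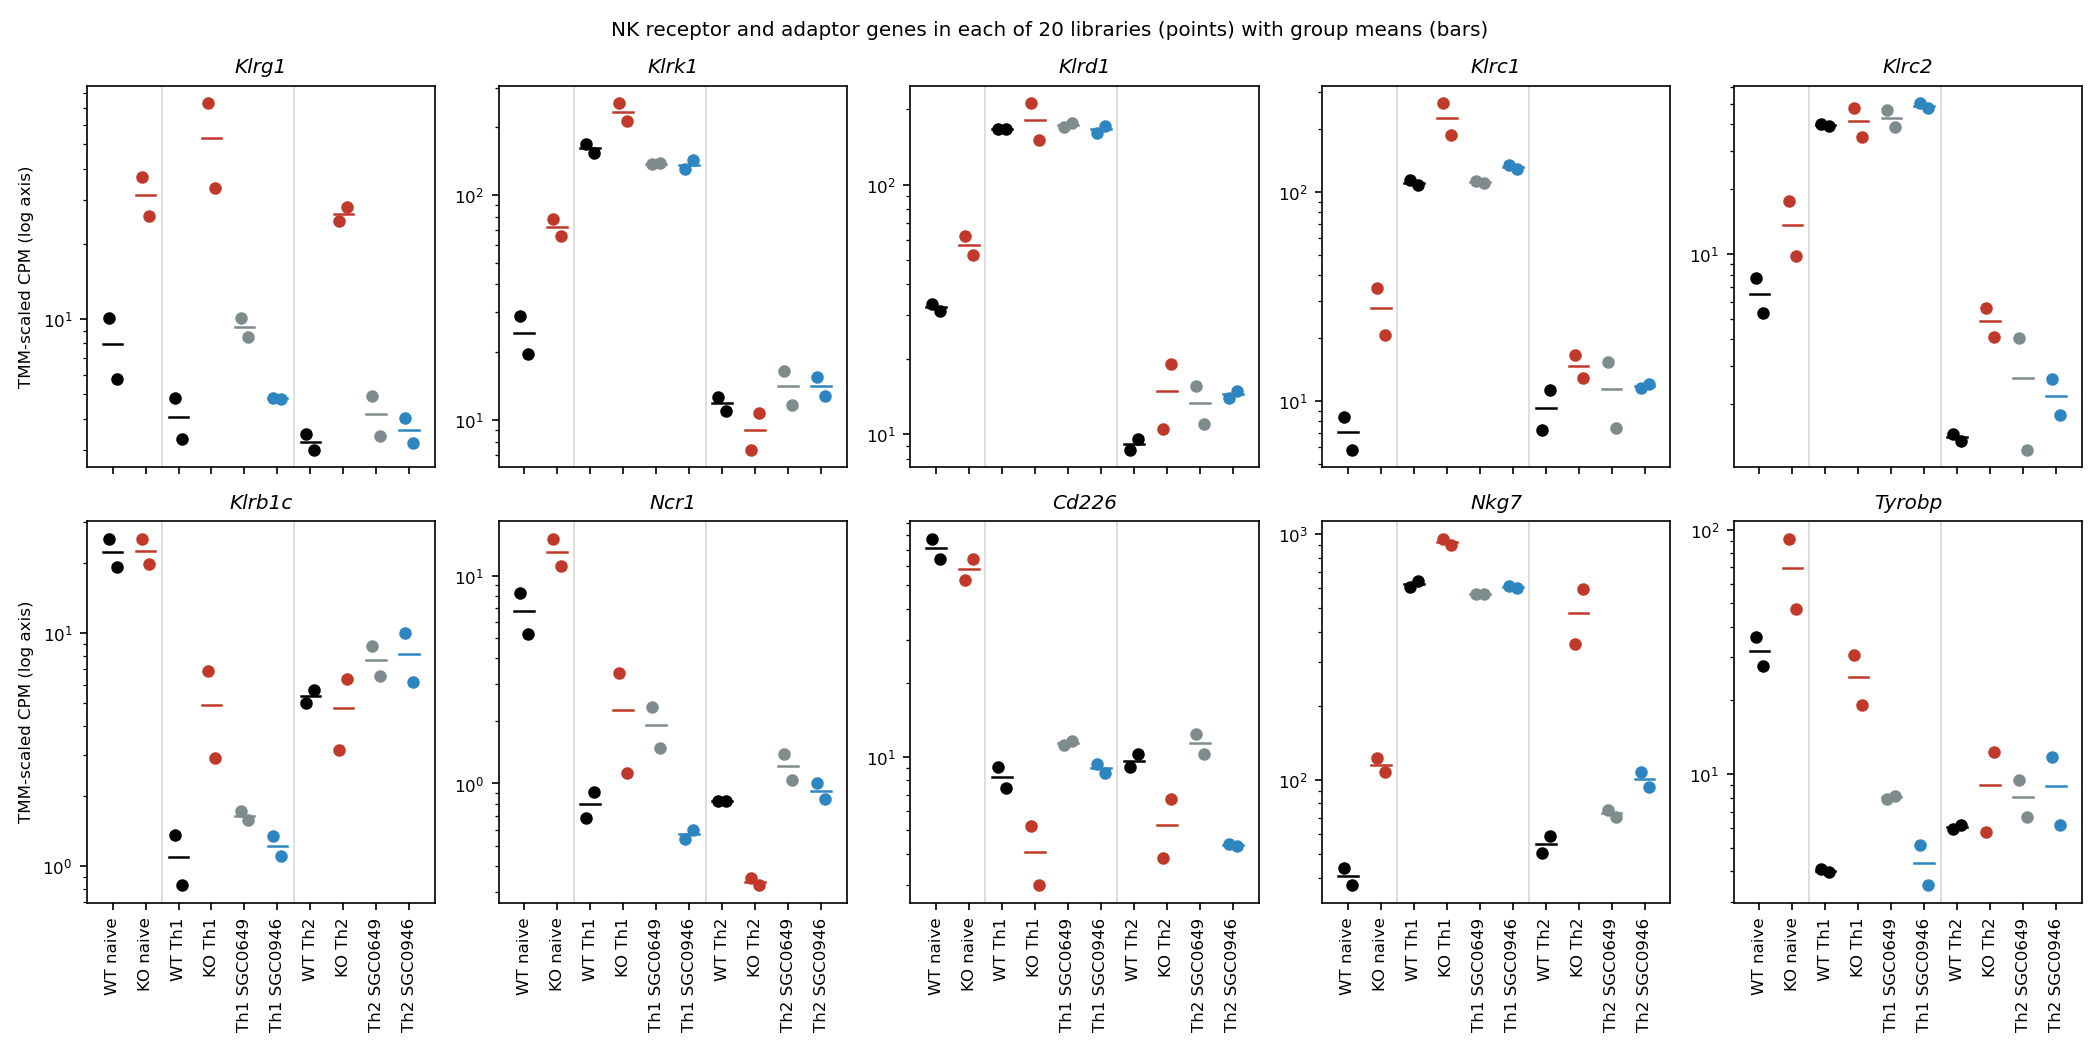
TMM-scaled CPM on a log axis for each of the 10 genes, in 10 groups of 2 libraries (points) with group means (bars). WT libraries are black, KO red, SGC0649 grey and SGC0946 blue. For Klrg1 the 6 KO libraries, at 24.7 to 73.0 CPM, lie above all 14 others.

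Most of these genes were higher in KO than in WT naive libraries. Of the 10 genes, 8 were called higher in KO than in WT naive libraries and none lower, where 16% of all genes tested were called higher and 12.4% lower. The median log2 difference of the 10 genes was 1.10, beside 0.0134 over all genes tested. The 8 were Klrg1, Klrc1, Klrk1, Nkg7, Tyrobp, Klrc2, Ncr1 and Klrd1.

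Klrg1 rose from 10.1 and 5.75 CPM in WT to 37.1 and 25.9 CPM in KO naive libraries, a log2 difference of 1.996 ± 0.343 (adjusted p = 0.00079). Klrc1, at 8.34 and 5.84 CPM in WT, reached 34.9 and 20.6 CPM in KO, a difference of 1.98 ± 0.34 (adjusted p = 0.00083). Klrk1 reached 78.2 and 65.4 CPM in KO against 28.9 and 19.6 in WT, a difference of 1.57 ± 0.18 (adjusted p = 2.2e-05). Both inhibitory and activating receptors were thus among those that rose. Nkg7 stood at 122 and 108 CPM in KO against 43.8 and 37.2 in WT, with a difference of 1.505 ± 0.182 (adjusted p = 3.1e-05). Without any 1 library, these 4 genes were still called.

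For the other 4 the call rested on single libraries. Tyrobp, the DAP12 adaptor, had 91.6 and 47.3 CPM in KO against 36.3 and 27.6 in WT naive libraries (1.12 ± 0.34, adjusted p = 0.026). It lost its call without WT replicate 1 (adjusted p = 0.0523), WT replicate 2 (0.159) or KO replicate 1 (0.343). Klrc2 had 17.5 and 9.82 CPM in KO against 7.76 and 5.30 (1.07 ± 0.33, adjusted p = 0.026), and was not called without WT replicate 2 (0.193) or KO replicate 1 (0.319). Ncr1 had 15.02 and 11.1 CPM in KO against 8.25 and 5.21 (0.96 ± 0.33, adjusted p = 0.037), and was not called without WT replicate 2 (0.287) or KO replicate 1 (0.256). Klrd1 had 62.5 and 52.2 CPM in KO against 33.4 and 31.1 (0.83 ± 0.20, adjusted p = 0.0073), and was not called without WT replicate 2 (0.0631) or KO replicate 1 (0.083). Over all alternatives the adjusted p ran from 0.00478 to 0.343 for Tyrobp, 0.00255 to 0.319 for Klrc2, 0.0066 to 0.287 for Ncr1 and 0.000622 to 0.083 for Klrd1. Without either of the libraries WT naive replicate 2 and KO naive replicate 1, the number called was 4. Klrb1c overlapped between the genotypes, with 25.2 and 19.7 CPM in KO against 25.3 and 19.1 in WT (0.02 ± 0.31, 95% interval -0.63 to 0.66). Cd226 had 52.9 and 64.3 CPM in KO against 77.5 and 64.1 (-0.27 ± 0.18, adjusted p = 0.27).

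Markers of several other cell types were also higher in the KO naive libraries. Of 13 myeloid and dendritic markers 10 were called higher and none lower, with sums of 1076 and 537 CPM in KO against 426 and 322 in WT. Of 7 erythroid markers 5 were called higher, with sums of 1340 and 323 CPM against 314 and 200. The 6 B cell markers summed to 77.6 and 50.1 CPM against 19.8 and 14.5, with 2 called higher. Of the 10 NK cell markers other than the genes studied, 4 were called higher, with sums of 185.5 and 134 CPM against 97.0 and 66.6. Of that list, the Ly49 receptor genes Klra4, Klra8 and Klra9 stood at 8.72 and 5.36, 11.96 and 6.09, and 6.93 and 2.36 CPM in KO, against 5.11 and 3.32, 5.79 and 3.95, and 4.81 and 3.14 CPM in WT. Klra9 overlapped between the genotypes. The 9 CD4 T cell markers, 1 called higher and 5 lower, summed to 3126 and 3483 CPM in KO against 4389 and 4381 in WT, and Cd4 itself stood at 409 and 398 against 981 and 990 CPM. KO replicate 1 was the highest of the 4 naive libraries for all 4 marker sums of other cells and for each of the 8 genes called. The part of other cells in the rise was not tested.

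In Th1 cultures Klrg1 and Tyrobp rose most. Of the 10 genes, 7 were called higher in KO than in WT (24.8% of all genes tested were higher) and 1, Cd226, lower (25.8% lower). The median log2 difference was 0.80, beside 0.0111 over all genes tested. The transcripts that distinguish Th1 from Th2 most, Klrd1 and Klrc2, did not pass the test.

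Klrg1 had 73.0 and 33.3 CPM in KO Th1 against 4.84 and 3.31 in WT Th1 libraries, a 13-fold or log2 difference of 3.71 ± 0.36 (adjusted p = 1.5e-06). Tyrobp had 30.6 and 19.2 CPM in KO against 4.08 and 3.97 in WT (2.63 ± 0.43, adjusted p = 0.0002). Klrb1c had 6.89 and 2.90 CPM against 1.36 and 0.827 (2.16 ± 0.48, adjusted p = 0.0015). In each case replicate 1 was the higher KO library. Without it the difference was 3.02 for Klrg1 (adjusted p = 1.49e-06) and 1.39 for Klrb1c (0.0372), so both calls held with smaller folds. Over the alternatives, the adjusted p of Klrg1 ran from 9.95e-24 to 0.0495 and that of Klrb1c from 2.46e-05 to 0.0372. Ncr1, with 44 and 14 counts in KO against 8 and 11 in WT, or 3.41 and 1.13 against 0.679 and 0.910 CPM, differed by 1.504 ± 0.476 (adjusted p = 0.015, 0.000926 to 0.468 over the alternatives). Its call was lost without KO replicate 1 (0.49, adjusted p = 0.468) or WT replicate 1 (0.102).

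The inhibitory NKG2A transcript Klrc1 stood at 266 and 188 CPM in KO Th1 against 114 and 108 in WT (1.03 ± 0.25, adjusted p = 0.0032). Its partner Klrd1 had 212 and 150 CPM against 166.7 and 166.8 (0.12 ± 0.18, 95% interval -0.27 to 0.51), and the activating Klrc2 had 47.7 and 35.0 CPM against 40.3 and 39.4 (0.05 ± 0.26, interval -0.50 to 0.61). For both of these the KO libraries lay on either side of the WT libraries. Klrk1 had 255 and 214 CPM against 169 and 154 (0.54 ± 0.16, adjusted p = 0.011, 0.000221 to 0.112 over the alternatives), and lost its call without WT replicate 2 (0.0879) or KO replicate 1 (0.112). Nkg7 had 953 and 897 CPM against 605 and 645 (0.57 ± 0.16, adjusted p = 0.0097, 1.49e-06 to 0.061), and lost its call without WT replicate 1 (0.061). Cd226 fell, with 5.19 and 2.98 CPM in KO against 9.09 and 7.44 in WT (-1.01 ± 0.25, adjusted p = 0.0032).

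Mast cell and basophil markers were also higher. All 9 were called higher in KO Th1, with sums of 2283 and 987 CPM against 196 and 148 in WT. Replicate 1 was the higher KO Th1 library for this sum, for every other marker list and for all 10 genes, with Cd226, which fell, among them. Of 10 NK cell markers 6 were called higher and 1 lower. Their sum was 208 and 186 CPM in WT and 2252 and 1291 CPM in KO, and granzyme A (Gzma), which cytotoxic T cells also make, gave 2110 and 1196 CPM of it. Without Gzma, a sum chosen after its values were seen, the list stood at 143 and 94.8 CPM in KO against 56.7 and 64.1 in WT. Klra4, Klra8 and Klra9 had between 0.564 and 2.17 CPM in the KO Th1 libraries and between 0.331 and 0.993 in WT. Of the same list, Klra7 stood at 31.3 and 17.9 CPM in KO against 7.13 and 8.27 in WT, and Klri2 at 50.4 and 31.0 against 8.49 and 8.77. Eomes, also of this list, went the other way, at 10.4 and 9.34 CPM in KO against 18.8 and 25.7 in WT. Of 13 myeloid markers 5 were called higher, with sums of 82.4 and 62.2 against 33.2 and 29.8 CPM and Cd209a and Clec4a2 at 0 in both genotypes. The 9 CD4 T cell markers, 1 called higher and 7 lower, summed to 3923 and 3784 CPM in KO Th1 against 5610 and 5469 in WT, with Cd4 at 212 and 199 against 1049 and 1007 CPM. The part of such cells in the rise of Tyrobp, Klrb1c, Ncr1 and Klrg1 was not tested.

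**Figure D2:**
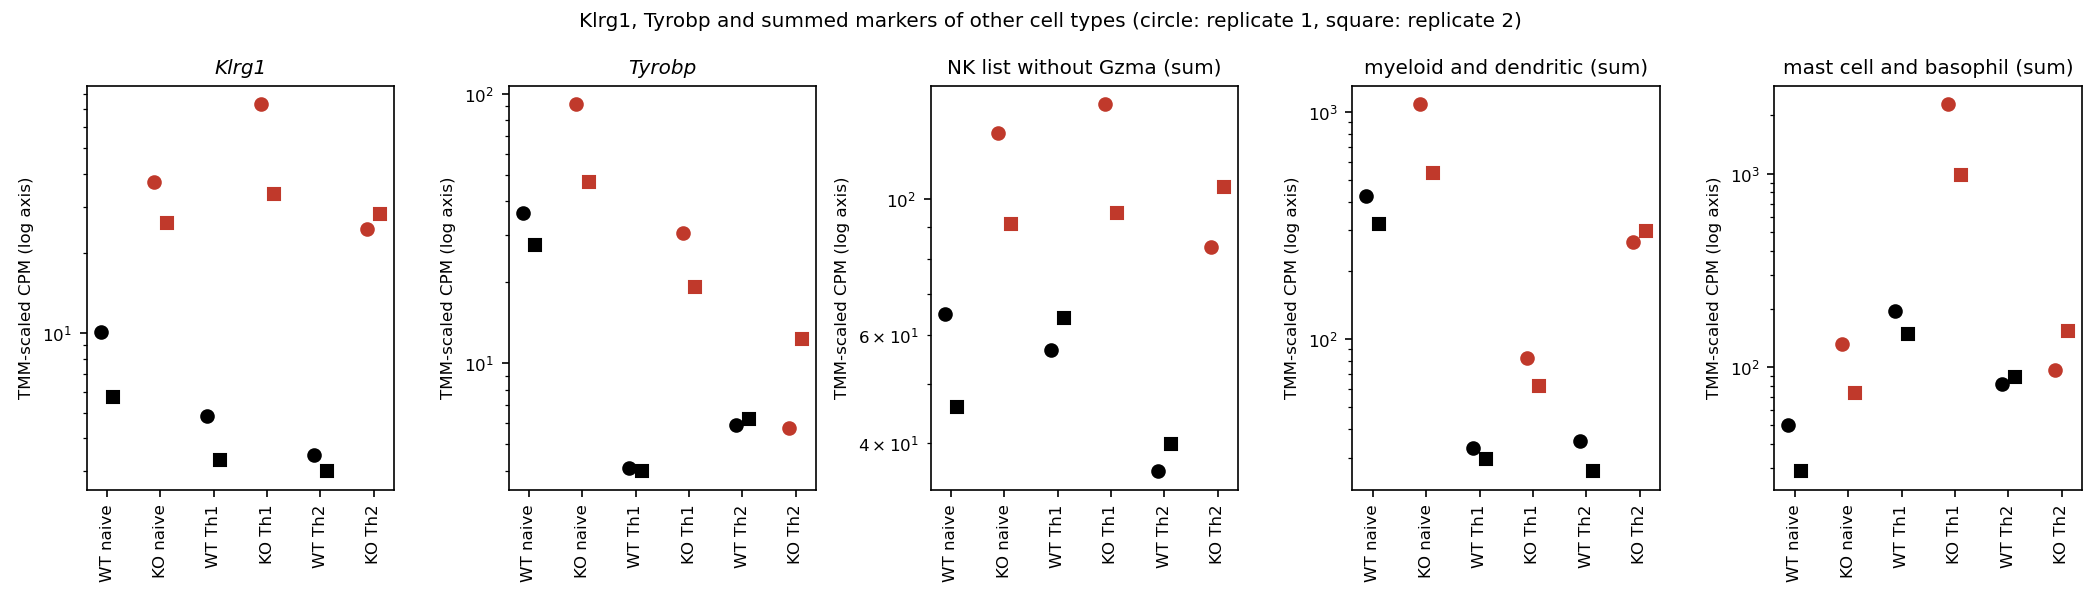
TMM-scaled CPM on log axes (circles replicate 1, squares replicate 2) in the naive, Th1 and Th2 libraries of WT (black) and KO (red): Klrg1, Tyrobp, and the sums of 9 NK cell markers without Gzma, 13 myeloid and dendritic markers and 9 mast cell and basophil markers. In KO Th1 the mast cell and basophil sum is 2283 CPM in replicate 1 and 987 in replicate 2, and Klrg1 is 73.0 and 33.3.

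In Th2 cultures Nkg7 and Klrg1 rose in KO with the largest fold changes of the 10 genes. Of the 10 genes, 4 were called higher in KO (26.5% of all genes tested) and 1 lower (26.9%), with a median log2 difference of 0.61 beside -0.0081 over all genes. Nkg7 had 356 and 597 CPM in KO Th2 against 50.2 and 58.9 in WT Th2 libraries, 8.73-fold higher (3.13 ± 0.18, adjusted p = 1.8e-09). Klrg1 had 24.7 and 28.0 CPM against 3.47 and 2.998, 8.09-fold higher (3.02 ± 0.39, adjusted p = 1.5e-05). Both were called without any 1 library. The KO Th2 mean of Nkg7, 476 CPM, lay beside 625 CPM in WT Th1, while Klrk1, Klrd1, Klrc1 and Klrc2 had at most 19.2 CPM in KO Th2.

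Klrk1 had 7.35 and 10.7 CPM in KO Th2 against 12.7 and 10.96 in WT (-0.41 ± 0.24, adjusted p = 0.16). Klrc1 had 16.5 and 12.8 CPM against 7.30 and 11.3 (0.68 ± 0.35, adjusted p = 0.11), and DESeq2 called it (adjusted p = 0.0387, the lowest of a range to 0.442). Klrc2 had 5.60 and 4.10 CPM against 1.46 and 1.34 (1.79 ± 0.50, adjusted p = 0.0074, 6.99e-05 to 0.0626), a call lost without KO replicate 1 (0.0626). Klrd1 had 10.5 and 19.2 CPM against 8.67 and 9.61 (0.68 ± 0.26, adjusted p = 0.04, 0.00165 to 0.56). Klrd1 rested on the upper KO library: without KO replicate 2 the difference was 0.20 (adjusted p = 0.56), and it was also not called without WT replicate 1 (0.142) or replicate 2 (0.0773). Cd226 had 3.85 and 6.69 CPM against 9.03 and 10.2 (-0.89 ± 0.25, adjusted p = 0.0064, 0.00127 to 0.118), a call lost without KO replicate 1 (0.118). Klrb1c, Ncr1 and Tyrobp were not called, and for Ncr1 the KO libraries hold 4 and 3 counts. Without KO replicate 1, the number of genes called in Th2 was 3.

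Markers of other cells also differed in Th2. The CD8 genes, 2 of 2 called higher, summed to 130 and 267 CPM in KO Th2 against 13.1 and 16.2 in WT. Replicate 2 was the higher KO library for that sum and for Klrg1, Klrk1, Klrd1, Klrb1c, Cd226, Nkg7 and Tyrobp. Replicate 1 was the higher for Klrc1, Klrc2 and Ncr1. Of 9 mast cell and basophil markers 1 was called, with sums of 96.5 and 154 CPM in KO against 81.7 and 88.6 in WT. Of 13 myeloid markers 5 were higher and 2 lower, with sums of 267 and 300 CPM against 35.7 and 26.1 and Cd209a at 0 in KO. Fcgr3, at 165 and 156 CPM, and Itgax, at 59.6 and 81.0 CPM, made up most of the KO sum, while Lyz2 stood at 0 and 0.755 and Csf1r at 0.875 and 1.40 CPM. Gzma reached 20238 and 22258 CPM in KO Th2 against 530 and 491 in WT, and the remaining 9 NK cell markers summed to 83.7 and 105 against 35.9 and 39.8 CPM. Klra4, Klra8 and Klra9 were at 0.108 to 0.700 CPM in KO Th2, each below its own WT Th2 libraries, which ran from 0.456 to 1.55. Of the same list, Klra7 was higher, at 23.98 and 16.9 CPM against 9.86 and 9.51, as were Itga2, at 16.98 and 19.9 against 2.92 and 2.38, and Eomes, at 32.7 and 55.0 against 8.12 and 11.4. The 9 CD4 T cell markers, 4 called higher and 5 lower, summed to 4173 and 4798 CPM in KO Th2 against 3380 and 3143 in WT, with Cd4 at 175 and 158 against 585 and 543 CPM. The part of other cells in the changes in Th2 was not tested.

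Differences between the KO effects were tested directly. The KO effect differed between Th1 and naive cells for 4 of the 10 genes (27.5% of all genes were called in either direction), between Th2 and naive cells for 3 (35.7%), and between Th1 and Th2 for 6 (46.2%). The Nkg7 effect was 2.56 ± 0.24 larger in Th2 than in Th1 on the log2 scale (adjusted p = 9.6e-07) and 1.62 ± 0.25 larger than in naive cells (adjusted p = 0.00014). The Klrk1 effect fell from naive cells to Th1 by 1.03 ± 0.24 (adjusted p = 0.0054) and to Th2 by 1.98 ± 0.30 (adjusted p = 0.00011). For Klrg1, the one gene called in all 3 comparisons beside Nkg7, the effect in Th1 and Th2 did not differ at the threshold (0.69 ± 0.56, interval -0.52 to 1.89, adjusted p = 0.34), and it did without KO Th1 replicate 2 (1.12, adjusted p = 0.0422, the lowest of a range to 1). With a replicate block, 5 genes differed between Th2 and naive cells instead of 3, Klrg1 (1.05, adjusted p = 0.039) and Klrc1 (-1.295, 0.0282) being added. The block also added Klrc2 (-1.025, 0.0128) and Tyrobp (1.51, 0.0287) between Th1 and naive cells.

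**Figure D3:**
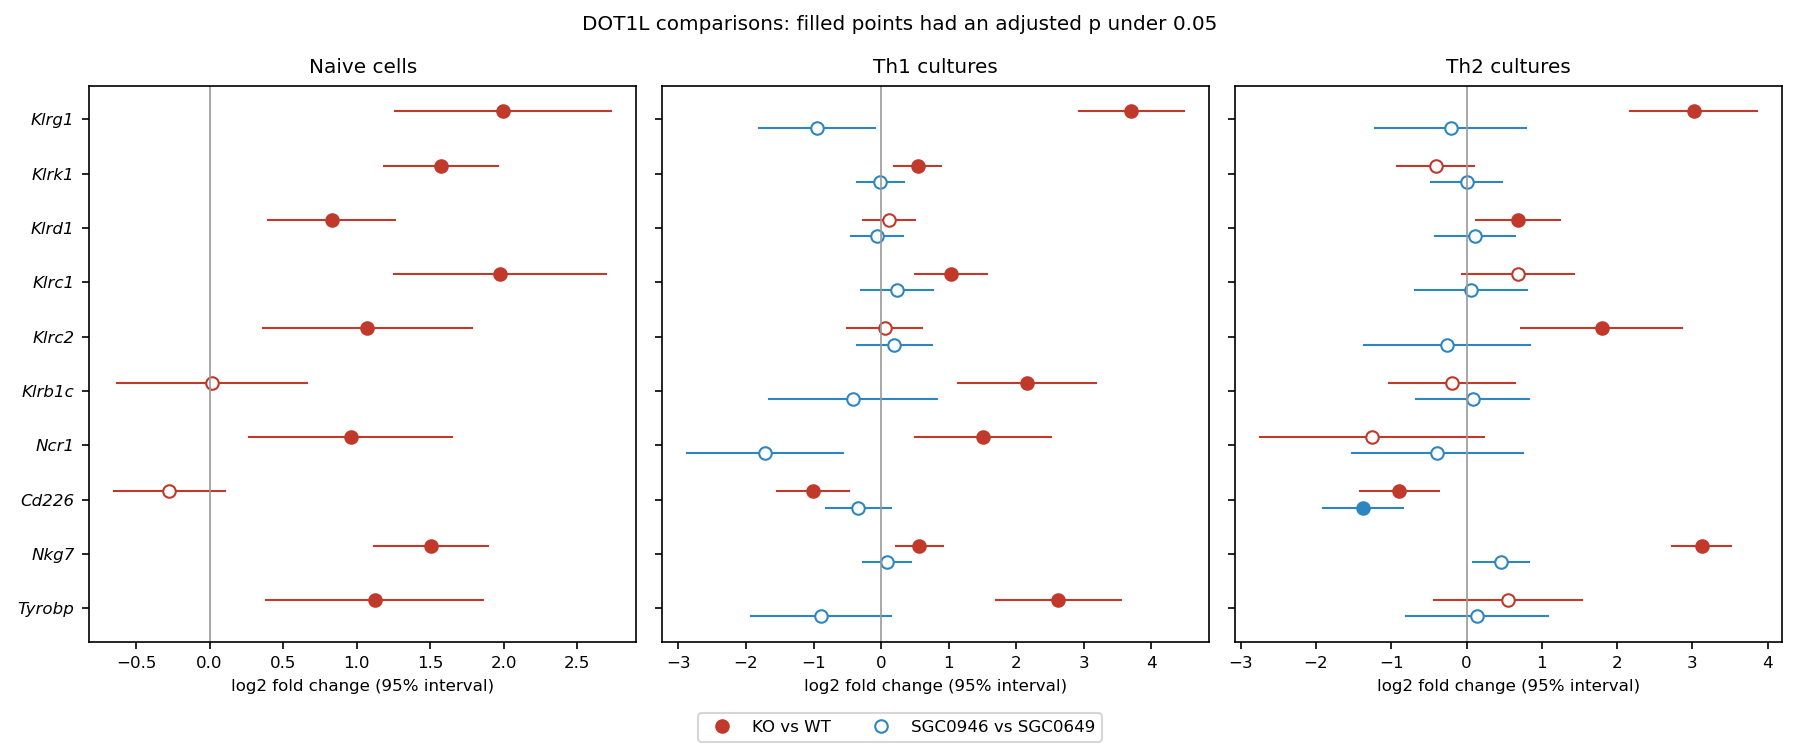
Log2 fold changes with 95% intervals for the 10 genes in naive cells, Th1 and Th2 cultures, KO against WT in red and SGC0946 against SGC0649 in blue, with filled points at an adjusted p under 0.05. All 10 blue points in Th1 are open, and Cd226 alone is filled in blue in Th2, at -1.38.

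Within the KO groups the culture conditions still separated the genes. Against KO naive cells, KO Th1 had 6 genes higher (36.2% of all genes) and 4 lower (34.8%), and KO Th2 had 1 higher (34.2%) and 8 lower (34.9%). Between KO Th1 and KO Th2, 8 genes were higher in Th1 (28.1%) and none lower (31.8%). Nkg7, the gene higher in KO Th2 than in KO naive, differed between KO Th1 and KO Th2 by 0.96 ± 0.17 (adjusted p = 0.00013), beside 3.52 ± 0.19 in WT. Klrk1 differed between them by 4.72 ± 0.21, beside 3.77 ± 0.20 in WT. Klrg1 was 1.01 ± 0.30 higher in KO Th1 than in KO Th2 (adjusted p = 0.0096, 0.000166 to 0.331), a call lost without KO Th1 replicate 1 (0.32, adjusted p = 0.331) or KO Th2 replicate 1 (0.0613). Tyrobp, 1.49 ± 0.39 higher in KO Th1 (adjusted p = 0.0049, 0.00033 to 0.0636), was not called without KO Th1 replicate 1 (0.0563) or KO Th2 replicate 1 (0.0636), and Cd226 was called without KO Th1 replicate 1 (adjusted p = 0.0393). The rise of Klrg1 from KO naive to KO Th1, 0.76 ± 0.30 (adjusted p = 0.034, 0.000499 to 0.821), was lost without KO naive replicate 2 (0.232) or KO Th1 replicate 1 (0.07, adjusted p = 0.821). The fall of Klrc1 from KO naive to KO Th2, -0.91 ± 0.30 (adjusted p = 0.016, 0.00231 to 0.214), was lost without KO naive replicate 1 (0.214) or KO Th2 replicate 2 (0.088).

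The inhibitor cultures were compared with those of the inactive compound at the same dose and time. In Th1, none of the 10 genes was called between SGC0946 and SGC0649, where 0.405% of all genes were higher and 0.0612% lower; 2 of the 10 had an unadjusted p under 0.05, and DESeq2 and limma voom also called 0. Klrg1 had 4.85 and 4.80 CPM with SGC0946 against 10.1 and 8.51 with SGC0649 (-0.94 ± 0.40, adjusted p = 0.44), a difference in the direction opposite to the KO. Tyrobp had 5.12 and 3.50 CPM against 7.90 and 8.14 (-0.88 ± 0.48, adjusted p = 0.61), and Ncr1, with 6 and 6 counts against 23 and 16, differed by -1.72 ± 0.55 (adjusted p = 0.22). With only the 4 libraries compared in the fit, these 3 genes were called (adjusted p = 0.0115 for Klrg1, 0.0292 for Tyrobp and 0.0409 for Ncr1). The highest p over the alternatives was 0.956 for Klrg1, 1 for Tyrobp and 0.798 for Ncr1. The SGC0649 libraries lay above the untreated WT Th1 libraries for all 3 genes. Beside untreated WT Th1, the SGC0946 means were 4.83 against 4.07 CPM for Klrg1, 4.31 against 4.02 for Tyrobp and 0.570 against 0.795 for Ncr1. Klrk1, Klrd1, Klrc1, Klrc2 and Nkg7 differed by -0.06 to 0.24, with 95% intervals that reach from -0.45 to 0.77.

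In Th2, Cd226 was the gene called, lower with SGC0946, where 5.45% of all genes were higher and 2.51% lower. It had 4.41 and 4.30 CPM with SGC0946, 12.4 and 10.3 with SGC0649 and 9.03 and 10.2 without a compound. The difference of -1.38 ± 0.25 (adjusted p = 0.0033) had the direction of the KO effect, and was not called with only the 4 libraries compared (adjusted p = 0.0844, the highest of a range from 3.27e-05). Nkg7 had 108 and 93.6 CPM with SGC0946 against 75.6 and 70.5 with SGC0649 (0.46 ± 0.18, adjusted p = 0.13), where the groups did not overlap. Klrg1 had 4.01 and 3.18 CPM against 4.93 and 3.39 (-0.21 ± 0.47, interval -1.22 to 0.80).

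SGC0649 alone gave no call among the 10 genes, in Th1 (0.0153% of all genes higher, 0% lower) or Th2 (0.245% and 0.428%), with 2 and 1 genes at an unadjusted p under 0.05 and 0 called by DESeq2 and limma voom in each. With only the 4 libraries compared, Klrg1 (1.19, adjusted p = 0.00393) and Tyrobp (1.00, 0.00963) were called higher with SGC0649 in Th1, and both had a p of 1 at the other end of the range over the alternatives. The KO effect exceeded the SGC0946 effect for 4 of the 10 genes in Th1 (30.7% of all genes were called in either direction): Klrg1 by 4.65 ± 0.54 (adjusted p = 2.8e-05), Tyrobp by 3.51 ± 0.65 (0.0013), Ncr1 by 3.22 ± 0.72 (0.0035) and Klrb1c by 2.58 ± 0.77 (0.019). Each of these differences takes SGC0946 against SGC0649, whose libraries lay above the untreated WT Th1 libraries for all 4 genes. Without KO Th1 replicate 1 these differences were 3.96 for Klrg1 (adjusted p = 9.88e-06), 2.20 for Ncr1 (0.0282) and 1.80 for Klrb1c (0.0712). The Klrb1c call was also lost without WT Th1 replicate 2 (0.0663), SGC0649 replicate 1 (0.0576) or 2 (0.0548) or SGC0946 replicate 2 (0.0515), and the block added Klrk1 (0.0355) and Klrc1 (0.0471). In Th2 the KO effect exceeded the SGC0946 effect for 3 genes (32% of all genes): Klrg1 by 3.23 ± 0.62 (adjusted p = 0.0012), Nkg7 by 2.66 ± 0.25 (1.5e-06) and Klrc2 by 2.05 ± 0.73 (0.043). The Klrc2 difference, 1.00 without SGC0649 replicate 1 (adjusted p = 0.387), was also not called without WT Th2 replicate 1 (0.0922) or 2 (0.107), KO Th2 replicate 1 (0.117) or SGC0946 replicate 1 (0.0566) or 2 (0.119), and was 2.69 without SGC0649 replicate 2 (adjusted p = 0.00635).

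The partners and ligands of these receptors were taken from lists chosen with earlier results of these data known. Over all genes tested, the shares called higher and lower in KO were 16% and 12.4% in naive cells, 24.8% and 25.8% in Th1, and 26.5% and 26.9% in Th2, beside which the counts of each list are given. Of 16 adaptor and signalling genes, 5 were higher and 1 lower in KO naive cells, 4 and 10 in Th1, and 7 and 4 in Th2, with medians of 0.05, -0.57 and 0.16. Fcer1g, the ITAM adaptor of NKp46, was higher in all 3 comparisons (1.23 ± 0.30, 2.74 ± 0.36 and 2.77 ± 0.33), and stood at means of 35.8 CPM in KO Th1 and 5.36 in WT Th1. Hcst, which encodes the DAP10 adaptor of NKG2D, was lower in KO Th1 (-0.62 ± 0.21) and higher in KO Th2 (1.34 ± 0.21). Plcg2, a phospholipase downstream of ITAM receptors, was higher in all 3 (1.34 ± 0.24, 1.62 ± 0.20 and 2.44 ± 0.22). Ptpn6, the SHP-1 phosphatase recruited by inhibitory receptors, was higher in KO naive cells (0.46 ± 0.08) and lower in KO Th1 (-0.82 ± 0.08) and Th2 (-1.87 ± 0.08), and lower with SGC0946 in Th2 (-0.32 ± 0.08, adjusted p = 0.021). Syk was higher in KO naive cells (1.54 ± 0.33) and KO Th1 (1.91 ± 0.37). Fcer1g and Syk are also made by myeloid and mast cells, whose markers moved as given above.

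Of 24 other receptors of NK and cytotoxic T cells tested, 10 were higher and 0 lower in KO naive cells, 13 and 4 in Th1, and 10 and 6 in Th2, with medians of 0.73, 0.78 and 0.49, beside 16% and 12.4%, 24.8% and 25.8%, and 26.5% and 26.9% of all genes. Cd244, the SLAM-family receptor 2B4, reached a mean of 365 CPM in KO Th2 against 13.6 in WT Th2 (4.75 ± 0.23, adjusted p = 2.8e-10), and was also higher in KO Th1 (3.24 ± 0.25) and naive cells (1.53 ± 0.26). Il18rap, a chain of the IL-18 receptor, was higher in all 3 as well (1.73 ± 0.19, 0.71 ± 0.17 and 3.59 ± 0.22). Tigit, an inhibitory receptor that shares ligands with DNAM-1, rose in all 3 (0.82 ± 0.22, 1.27 ± 0.21 and 1.95 ± 0.20) and with SGC0946 in Th2 (0.94 ± 0.20, adjusted p = 0.011), where Cd226 fell. Cd96, the third receptor of that family, was higher in KO Th2 (2.13 ± 0.24) and was not called in naive cells or Th1. Klrc3 was higher in KO naive cells (1.86 ± 0.48), and Klra1 was lower in KO Th1 (-2.85 ± 0.41) and Th2 (-2.40 ± 0.60). Slamf6 was lower in KO Th1 (-1.59 ± 0.15) and higher in KO Th2 (2.71 ± 0.16) and with SGC0946 in Th2 (1.45 ± 0.16).

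Ligands were measured in the same T cells, with 8 of 19 listed genes tested: 3 were higher and 1 lower in KO naive cells, 2 and 4 in Th1, and 3 and 3 in Th2, with medians of 0.42, -0.17 and -0.10. E-cadherin (Cdh1), a ligand of KLRG1, was higher in all 3 KO comparisons (2.53 ± 0.48, 2.09 ± 0.56 and 2.79 ± 0.49), at low levels of 9.48, 3.76 and 10.98 CPM in the KO groups. H2-T23, the Qa-1 heavy chain recognised by CD94 and its partners, was lower in KO Th1 (-0.41 ± 0.11) and slightly higher in KO Th2 (0.27 ± 0.11). Clec2d, which encodes a ligand of a Klrb1 receptor, was higher in KO naive (0.59 ± 0.11) and Th2 (1.08 ± 0.11), lower in KO Th1 (-0.52 ± 0.11), and higher in Th2 with SGC0946 than with SGC0649 (0.50 ± 0.10) and with SGC0649 than without a compound (0.49 ± 0.11). Of 14 transcription factors of NK and cytotoxic programs, 7 were higher and 5 lower in KO naive cells, 3 and 9 in Th1, and 7 and 5 in Th2. Bach2, a repressor of effector genes, was lower in all 3 (-1.27 ± 0.17, -3.98 ± 0.20 and -3.53 ± 0.21), and Prdm1, which encodes BLIMP-1, was higher in all 3 (0.89 ± 0.14, 0.32 ± 0.11 and 1.85 ± 0.12) and with SGC0946 in Th1 (0.59 ± 0.11) and Th2 (1.19 ± 0.12). Zbtb16, the factor of NKT and innate-like T cells, was lower in all 3 (-2.28 ± 0.36, -3.99 ± 0.44 and -4.82 ± 0.40). Zbtb16 is itself on the list of markers of γδ and innate-like T cells, of which 3 of 5 listed genes were in the table. These 3 summed to 22.3 and 21.4 CPM in WT and 11.1 and 8.18 in KO naive libraries. In Th2 the sums were 3.06 and 1.62 CPM in KO against 37.1 and 40.3 in WT. Within them, the means of Zbtb16 were 14.3 CPM in WT and 2.94 in KO naive cells, and 32.7 in WT and 1.07 in KO Th2. Of the 3 genes, 1 was called lower in KO naive cells, 2 in KO Th1 and 3 in KO Th2.

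The neighbours of the receptor genes moved in both directions. The window from 1000000 bases before Klrb1c to 1000000 bases after Klrc1 holds 55 protein-coding genes, of which 31 other than the 5 studied were tested. Of the 31, 9 were higher and 3 lower in KO naive cells, 12 and 6 in KO Th1, and 5 and 11 in KO Th2, where the shares of all genes tested were 16% and 12.4%, 24.8% and 25.8%, and 26.5% and 26.9%. Klrb1f, of the same family as Klrb1c, was higher in all 3 KO comparisons (1.34 ± 0.24, 1.72 ± 0.23 and 1.93 ± 0.28). Clec12a, a myeloid lectin receptor, was higher in KO naive cells (1.22 ± 0.37) and Th1 (4.45 ± 0.49), and Olr1, a scavenger receptor, in KO Th1 (5.33 ± 0.67). Klri2 and Klre1, whose products pair, were higher in KO Th1 (2.24 ± 0.32 and 0.85 ± 0.25). In WT cells, 11 of the 31 were higher in Th1 than in Th2 (26% of all genes) and 5 lower (27.3%), with Klrc3 (3.43 ± 0.39), Klre1 (2.48 ± 0.33) and Klri2 (2.33 ± 0.43) among the higher, beside Klrk1, Klrd1, Klrc1 and Klrc2. Other neighbours called at a mean log2 CPM of at least 1 were Foxm1, Fkbp4, Klrb1b, BC035044, Clec2d, Gabarapl1 and Klrc3 (higher in KO naive), Tspan9, Fkbp4, Klrb1b, Klra7 and Klra3 (higher in KO Th1), and Tspan9, Clec2d, Cd69 and Klra7 (higher in KO Th2). Lower were Tulp3, Rhno1 and Itfg2 in all 3 KO comparisons, Clec2d and Klra1 in KO Th1, and Foxm1, Clec2i, Gabarapl1, Klra9, Klra3 and Klra1 in KO Th2. No neighbour was called between the compounds in Th1, and Clec2d alone in Th2.

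**Figure D4:**
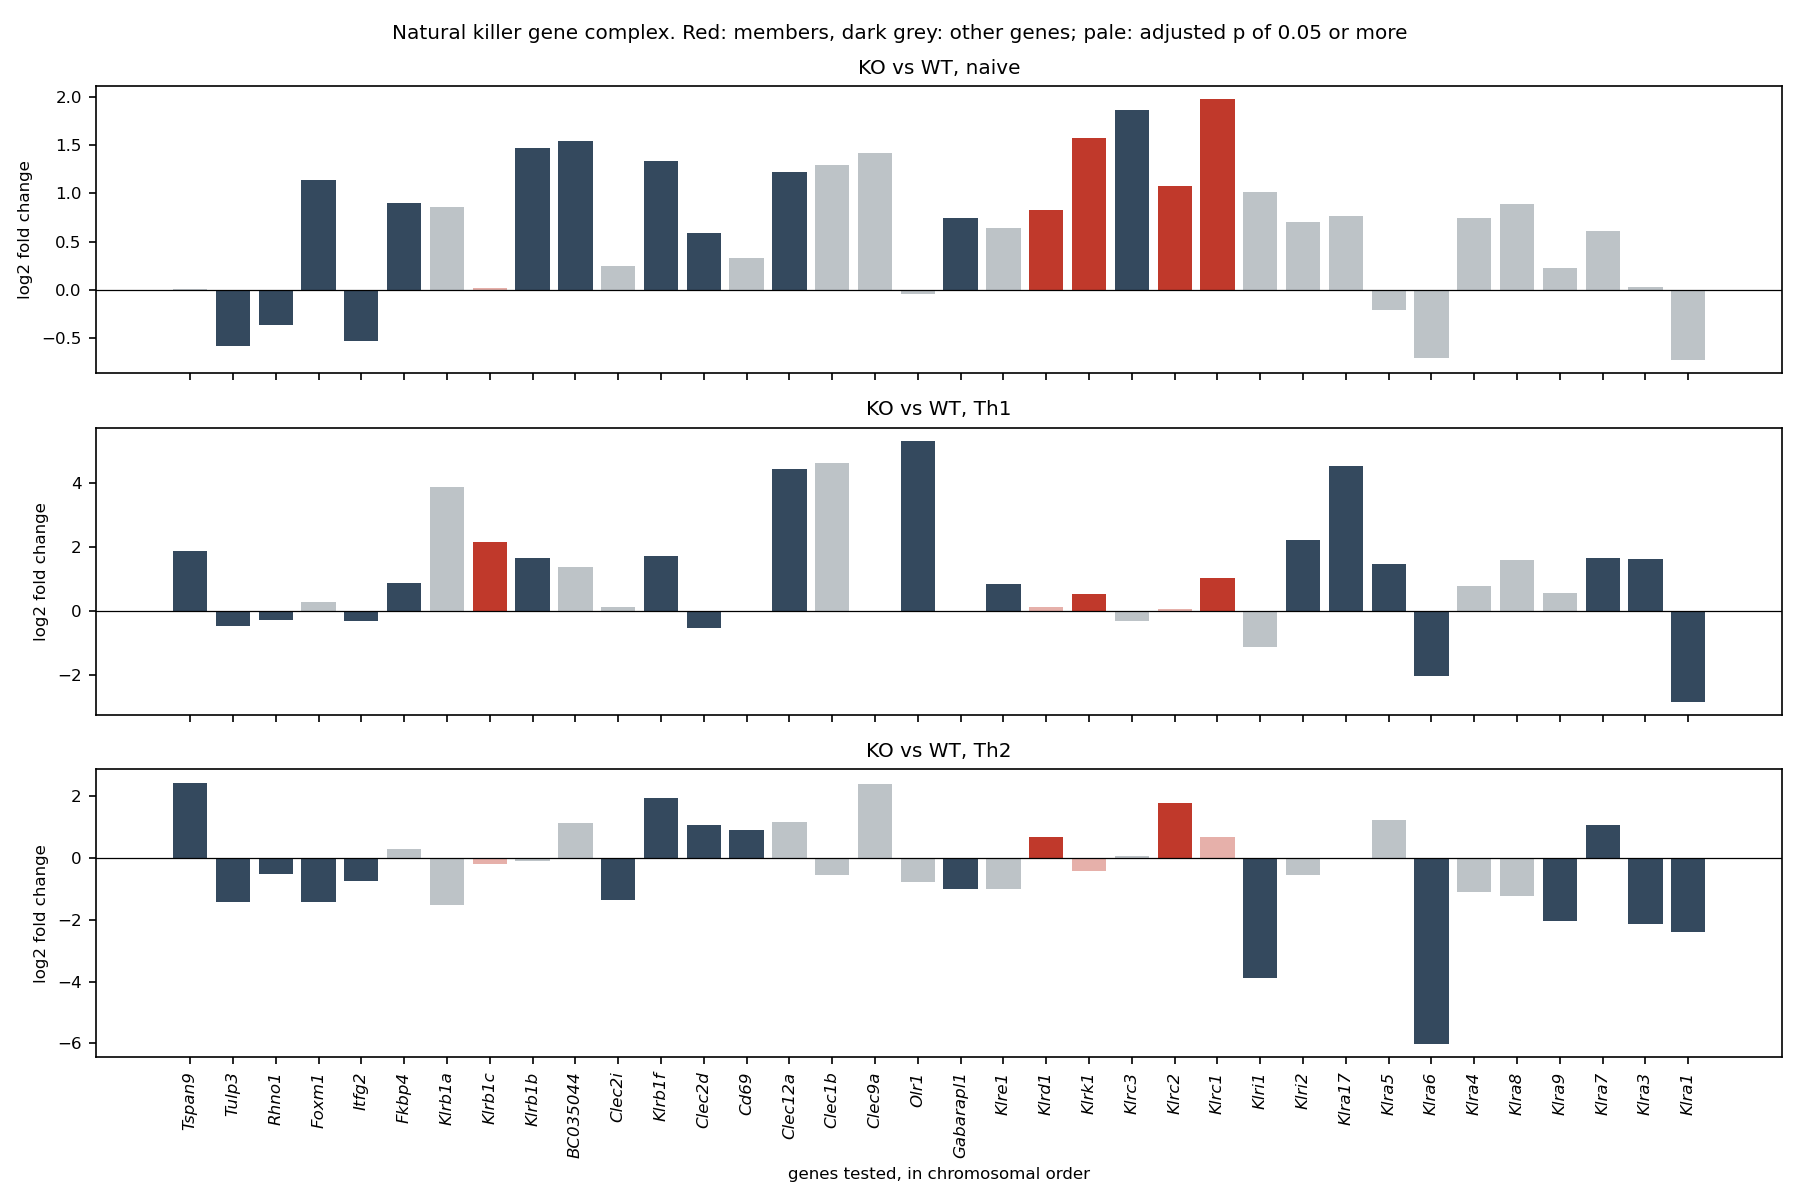
Log2 fold changes, KO against WT, of the 36 genes tested in the natural killer gene complex and its flanks, in chromosomal order, for naive, Th1 and Th2 cells. The 5 genes studied are red, others dark grey, pale bars have an adjusted p of 0.05 or more, and each panel has its own vertical scale; the direction changes between neighbours, with 12 other genes higher and 6 lower in Th1.

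Across all 20 libraries the genes fell into different patterns, given here as Pearson correlations of log2 CPM over libraries that share genotype, culture and compound. Klrk1, Klrd1 and Klrc2 were most like each other or like other Th1-high genes: Klrk1 with Klrd1 (r = 0.978), Klrd1 with Lysmd2 (0.988), and Klrc2 with Klrd1 (0.974). Klrc1 was most like Pde5a (0.981), Mnda (0.981) and the Th1 cytokine gene Ifng (0.971), and Nkg7 like Plac8 (0.977) and Sulf2 (0.972). Klrg1 stood apart from the NKG2 genes, with r = 0.303 to Klrk1 and 0.292 to Klrd1, and was most like Naip2 (0.915), Frmd4a (0.914) and S100a4 (0.906). Tyrobp was most like Tnfaip2 (0.944), the myeloid factor gene Spi1 (0.943) and Lmo4 (0.936). Klrb1c was most like the macrophage gene Adgre1 (0.955), and Ncr1 like the Ly49 gene Klra8 (0.937). Cd226 was most like Plekha1 (0.968).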

How the data were processed

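RNA from 20 libraries was analysed as the authors deposited it: whole-number counts per gene, made per the file headers with featureCounts 1.5.3 (strand setting 2) on Ensembl release 84 (GRCm38), with exon length in bases also from the authors' deposited table and used here for RPKM. The submitters' processing notes name edgeR, limma and featureCounts, and the aligner is not given in the sources used here. Of all alignments, in which 1 read can count several times, 49.5% to 56.3% were assigned to genes. The protein-coding counts were scaled by TMM and filtered with filterByExpr (minimum count 10, minimum total 15), and 1 robust quasi-likelihood model of 10 group means was fitted (edgeR 4.0.16 in R 4.3.3, 10 residual degrees of freedom). Contrasts of group means were tested for 13072 genes with Benjamini-Hochberg adjustment and called at an adjusted p under 0.05, with SE as the fold change over the root of F.

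Alternatives were RLE size factors, DESeq2 1.42.0, limma voom (3.58.1), no filter, the table of all biotypes, the libraries of a contrast alone, a replicate block, and each library left out. Same-numbered libraries deviated together in 3 of 3 pairs of KO and WT groups (r from 0.133 to 0.283) and 15 of 15 pairs of WT cultures (0.192 to 0.7); over all 45 pairs of groups r ran from -0.11 to 0.7. The pairing comes from the numbers in the titles, but 2 count columns of SGC0946 libraries, 1 in Th1 and 1 in Th2, carry number 1 where the title matched by the rest of the name carries 2. The SGC0946 replicate numbers, their part in the block and their correlations rest on that match. All 10 genes were named whatever their result; other genes were named by a rule on lists (up to 2 called genes per list and comparison at a mean log2 CPM of at least 1, and some named whatever their result). The genes and lists were chosen with earlier results of these data known.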

Additional observations from a re-analysis of the deposited data

Results flagged for a closer look

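For 13 combinations of gene and conditions, the KO effect differed between conditions by the test of the difference itself (log2 difference of the KO effects ± SE, edgeR adjusted p). Such differences were common among all genes tested. In either direction, 27.5% of them were called between Th1 and naive cells, 35.7% between Th2 and naive cells and 46.2% between Th1 and Th2. Between Th1 and naive cells, the effect was larger in Th1 for Klrg1 (1.71 ± 0.51, adjusted p = 0.0218, 0.00089 to 0.206 over the alternatives) and Klrb1c (2.14 ± 0.57, 0.0117, 0.00176 to 0.0948). It was smaller for Klrk1 (-1.03 ± 0.24, 0.00544, 0.000916 to 0.0367) and Nkg7 (-0.94 ± 0.24, 0.00999, 7.14e-05 to 0.0531). Klrg1 lost its call without WT naive replicate 1 (0.139), KO naive replicate 2 (0.0734), WT Th1 replicate 2 (0.097) or KO Th1 replicate 1 (1.02, 0.0736). Klrb1c lost it without WT Th1 replicate 2 (0.0706) or KO Th1 replicate 1 (1.38, 0.0948), and Nkg7 without WT naive replicate 2 (0.0531).

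Between Th2 and naive cells, the effect was smaller in Th2 for Klrk1 (-1.98 ± 0.30, adjusted p = 0.000113, 5.55e-10 to 0.00148) and Ncr1 (-2.22 ± 0.77, 0.0338, 0.0116 to 0.0937), and larger for Nkg7 (1.62 ± 0.25, 0.000138, 6.15e-10 to 0.0118). Ncr1, with 4 and 3 counts in KO Th2, lost its call without WT naive replicate 2 (0.0824), KO naive replicate 1 (0.0789), WT Th2 replicate 1 (0.0937) or 2 (0.0895), or KO Th2 replicate 1 (0.0908) or 2 (0.0852).

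Between Th1 and Th2, the effect was larger in Th1 for Klrk1 (0.95 ± 0.29, adjusted p = 0.0136, 0.0031 to 0.0891), Klrb1c (2.35 ± 0.63, 0.00616, 0.000763 to 0.0459), Ncr1 (2.76 ± 0.85, 0.0137, 0.00137 to 0.0791) and Tyrobp (2.08 ± 0.64, 0.016, 0.000761 to 0.056). It was smaller in Th1 for Klrc2 (-1.74 ± 0.57, 0.0215, 0.00185 to 0.0975) and Nkg7 (-2.56 ± 0.24, 9.645e-07, 2.46e-24 to 0.000804). Without KO Th1 replicate 1 the difference was 1.73 for Ncr1 (0.0791), 1.68 for Tyrobp (0.056) and 1.57 for Klrb1c (0.0459). Without KO Th2 replicate 1 the calls of Klrk1 (0.0891), Klrc2 (0.0975) and Tyrobp (0.0526) were lost, and without KO Th2 replicate 2 the Tyrobp difference was 2.70. Klrk1 also lost its call without WT Th2 replicate 1 (0.0716), and Klrc2 without WT Th2 replicate 1 (0.0643) or 2 (0.0745).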

How the results depend on the processing

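Over all 18 comparisons, 89 of 2170 alternative tests of a gene lost a call and 41 gained one. In the 5 comparisons of KO with WT and of SGC0946 with SGC0649, of 549 alternative values for single genes, 516 kept their direction and side of the threshold, 29 lost the call, 4 gained one and 0 reversed; of 218 alternative counts of called genes, 209 stayed within 1.5 times. Leaving out 1 library gave 4 to 8 genes called for KO against WT in naive cells (8 with all), 3 to 4 in Th2 (5 with all) and 2 to 5 for the KO effect in Th1 minus naive cells (4 with all). With only the libraries of a contrast, 3 genes in place of 0 were called for SGC0946 against SGC0649 in Th1, 0 in place of 1 in Th2, 2 in place of 0 for SGC0649 against no compound in Th1, and 7 in place of 4 for the KO effect minus the SGC0946 effect in Th1. The cause was not tested. Shares of all genes called were counted in the main fit only, so counts under the alternatives have no such share beside them. With a replicate block, 5 genes in place of 3 were called for the KO effect in Th2 minus naive cells, and the counts for KO against WT were 8, 8 and 5 in naive cells, Th1 and Th2, as without it. Depth limits Ncr1 most, with 3 to 14 counts in several culture libraries.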
